A study of Mus musculus with 21 samples.

Results

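Chemokines are small secreted or membrane-bound proteins that steer leukocytes along a gradient, and fibroblasts are among the stromal cells that make them. The 10 chemokine genes described here, Ccl2, Ccl5, Ccl7, Ccl9, Cxcl1, Cxcl5, Cxcl10, Cxcl12, Cxcl16 and Cx3cl1, were taken by symbol from a table of 24454 mouse genes. They were chosen with earlier results of these data known. All 10 passed the filter on low counts, which 13719 genes of the table passed. They were followed through 21 RNA-seq libraries of mouse embryonic fibroblasts (MEFs), 3 libraries in each of 7 groups.

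All cells carried floxed alleles and all were infected with an adenovirus, collected 96 h later. Rtel1f/f +GFP cells received a virus that makes GFP alone, and Rtel1f/f +Cre cells a virus that also makes Cre, which deletes Rtel1, the gene of a helicase that unwinds telomeric loops and G-quadruplexes. Rtel1f/f +GFP +TMPyP4 cells received the GFP virus and, for the last 48 h, 10 uM TMPyP4, a porphyrin that binds and stabilizes G-quadruplex DNA. Rtel1f/f RTEL1 CA cells expressed RTEL1 C1252A/C1255A, a mutant with a defect in unwinding t-loops, from a retroviral vector and received either virus, so that in the +GFP cells of this line the mutant was present beside the floxed gene. In Trf1f/f cells, also given either virus, Cre deletes Terf1, which encodes the telomere-binding protein TRF1. The labels call the libraries biological replicates but do not say that they came from separate embryos or cultures, so the p-values measure the spread between libraries, which may be technical. Each line stands for itself alone, and line and culture history cannot be told apart.

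In fibroblasts a few chemokines, Cxcl12 above all, are made without stimulation, and most others are induced. Ccl2, Ccl7, Cxcl1 and Cxcl5 are classic targets of NF-kB, the transcription factor that answers cytokines such as TNF and interleukin 1. Ccl5 and Cxcl10 respond in addition to interferon regulatory factors, which lie downstream of sensors of foreign or misplaced nucleic acid. Cx3cl1 and Cxcl16 are made as membrane proteins with a mucin-like stalk and are released when ADAM proteases cut them.

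Total counts per library ranged from 32069888 to 51938593, so that 3 counts, taken as the smallest measurable level, corresponded to 0.0588 to 0.0951 CPM (counts scaled to each library's size with edgeR's TMM factors). Rtel1 stood at 66.2, 59.1 and 60.2 CPM in the Rtel1f/f +GFP libraries and at 29.9, 31.9 and 26.8 CPM in the +Cre libraries, without overlap. In RTEL1 CA cells, whose counts may include the vector's transcript, it was at 332 ± 4.80 CPM under GFP and 265 ± 16.3 CPM under Cre (SD, n = 3 here and below). Terf1 had 1204 to 1288 counts in the Trf1f/f +GFP libraries and 5, 2 and 1 counts in the +Cre libraries. The 10 fibroblast markers summed to 7903 to 29029 CPM in every library, but Thy1, at 223 to 259 CPM on average in Trf1f/f cells, averaged no more than 0.252 CPM in the Rtel1f/f groups. Macrophage and monocyte markers summed to at most 15.1 CPM, with Adgre1 and C1qa at 0 counts in all 21 libraries, and endothelial and epithelial markers to at most 4.45 and 9.86 CPM. As these are bulk samples, a change in the share of producing cells and a change in RNA per cell cannot be told apart.

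The members lie on chromosomes 5, 6, 8 and 11 (RefSeq positions, build GRCm38.p6). Ccl2 (chr11:82035577-82037452) and Ccl7 (chr11:82045712-82047525) are neighbours on the plus strand, 8.3 kb apart with no other protein-coding gene between them. Ccl5 (chr11:83525778-83530518) and Ccl9 (chr11:83572917-83578636) follow on the minus strand of the same chromosome, 42.4 kb apart, and Cxcl16 (chr11:70454389-70459984, minus strand) lies far from both pairs. On chromosome 5 are Cxcl5 (chr5:90759298-90761625) and Cxcl1 (chr5:90891245-90893121), both on the plus strand and 129.6 kb apart with 4 protein-coding genes between them, and, on the minus strand, Cxcl10 (chr5:92346638-92348889). Cxcl12 (chr6:117168535-117181368) and Cx3cl1 (chr8:94772180-94782427) stand alone. Ccl2, Cxcl10 and Cxcl16 each overlap a protein-coding gene of the opposite strand in GENCODE M21 (Gm17268, Art3 and Zmynd15). The reads were strand-specific and were counted by strand, so that reads of the partner genes are kept apart as far as the libraries keep their strand.

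A RefSeq table of promoters held 5 of the 10 members, Cxcl1, Cxcl10, Cxcl12, Cx3cl1 and Ccl9. Printed here are the 250 bases before the transcription start of the 4 whose windows hold a match to at least 1 motif searched; in the fifth, Cxcl12, no match was found. Capitals mark matches, on either strand, to the kappa-B consensus bound by NF-kB, to GAAA repeated after a gap of 2 bases, the core of the element bound by interferon regulatory factors, to TGANTCA, the AP-1 element, and to TATAAA, the TATA box. Where matches overlap, the capitals run on.
Cxcl10 (chr5:92348890-92349139, minus strand): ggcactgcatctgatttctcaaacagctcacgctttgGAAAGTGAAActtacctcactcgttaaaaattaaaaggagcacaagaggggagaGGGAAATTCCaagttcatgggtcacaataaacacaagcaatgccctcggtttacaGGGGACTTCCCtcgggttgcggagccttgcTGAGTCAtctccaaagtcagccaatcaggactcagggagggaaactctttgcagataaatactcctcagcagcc
Cxcl1 (chr5:90890995-90891244, plus strand): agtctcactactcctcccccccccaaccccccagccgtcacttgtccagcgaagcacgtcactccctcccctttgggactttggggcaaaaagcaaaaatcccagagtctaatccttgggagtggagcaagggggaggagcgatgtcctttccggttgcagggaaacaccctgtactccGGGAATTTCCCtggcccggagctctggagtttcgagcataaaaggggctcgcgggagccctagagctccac
Ccl9 (chr11:83578637-83578886, minus strand): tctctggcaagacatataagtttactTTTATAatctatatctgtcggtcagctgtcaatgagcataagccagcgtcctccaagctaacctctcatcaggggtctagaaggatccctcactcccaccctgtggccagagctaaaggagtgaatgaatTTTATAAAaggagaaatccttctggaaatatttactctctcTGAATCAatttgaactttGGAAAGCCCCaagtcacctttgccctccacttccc
Cx3cl1 (chr8:94771930-94772179, plus strand): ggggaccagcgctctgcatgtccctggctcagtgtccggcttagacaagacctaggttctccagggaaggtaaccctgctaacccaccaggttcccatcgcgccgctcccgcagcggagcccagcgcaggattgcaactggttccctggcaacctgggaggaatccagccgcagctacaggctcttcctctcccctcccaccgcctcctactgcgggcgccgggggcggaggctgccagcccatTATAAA

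The Cxcl10 window held the interferon-type match, at 213 to 204 bases before the start, a kappa-B match at 159 to 150 bases, a pair of overlapping kappa-B matches at 104 to 94 bases and an AP-1 match at 74 to 68 bases. The Cxcl1 window held overlapping kappa-B matches, 1 on each strand, at 71 to 61 bases. In Ccl9 a kappa-B match lay at 35 to 26 bases, an AP-1 match at 53 to 47 bases and TATAAA matches farther out, whereas in Cx3cl1 the search found only TATAAA, directly at the annotated start. Among all 32851 windows of 250 bases in the table, 7.25% held a kappa-B match, 2.98% the interferon-type match, 6.75% the AP-1 match and 12.4% a TATAAA. A pattern of 4 runs of at least 3 G with 1 to 7 bases between them, 1 form of sequence that can fold into a G-quadruplex, was in 16.7% of all windows on either strand and in 0 of the 5 member windows. Longer gaps were not searched, and the other members had no window. The paper predicted G-quadruplexes by another measure, a G4Hunter score, over a wider region around the start. These counts therefore do not show that the promoters lack such sequences. These matches describe letters only and were not tested as binding sites.

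**Figure D1:**
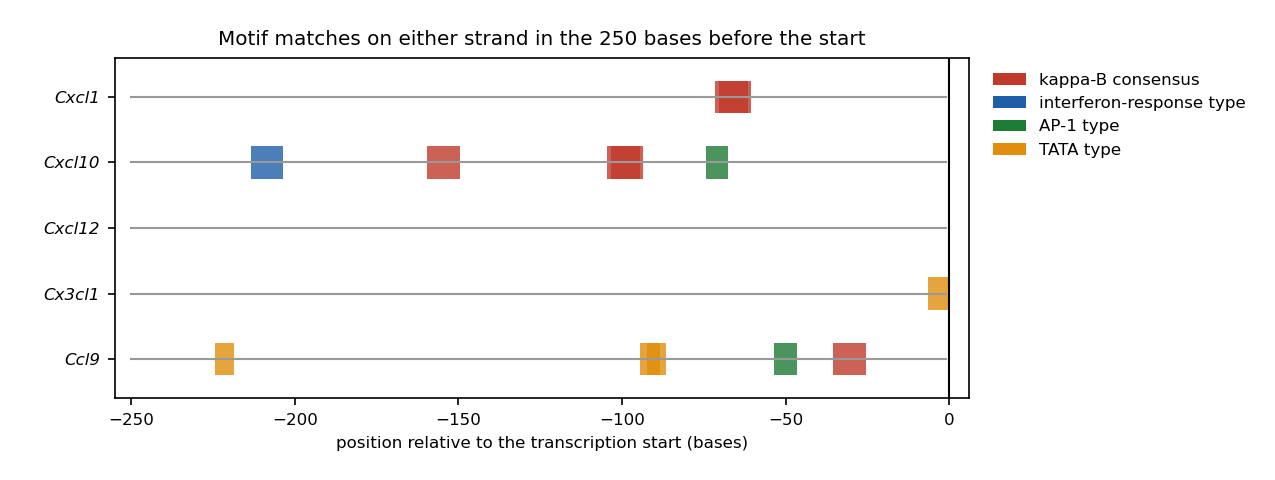
Motif matches in the 250 bases before the transcription start of the 5 chemokine genes with a promoter entry; the horizontal axis gives the position in bases relative to the start and each coloured block 1 match on either strand. Cxcl10 carries 5 blocks of 3 kinds (the kappa-B pair overlaps), Cxcl12 carries none of the 4 motifs drawn.

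Levels between genes are compared on the deposited TPM scale, which accounts for transcript length. In Rtel1f/f +GFP cells Cxcl12 (322 ± 30.3 TPM), Ccl5 (320 ± 14.7), Ccl2 (275 ± 46.0) and Cxcl10 (260 ± 52.7) led, and neighbours in this order overlapped between libraries. Ccl7 followed at 126 ± 3.44 TPM and Cx3cl1 at 101 ± 8.83 TPM. Cxcl1 at 27.5 ± 5.10, Cxcl16 at 9.72 ± 3.12 and Ccl9 at 7.30 ± 0.214 TPM came next, and Cxcl5 was last at 0.437 ± 0.0551 TPM. The 4 leading members thus had a higher mean TPM than 97.5% to 98.1% of the genes in the table.

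The order differed between groups. Cxcl12 had the highest mean TPM in the 4 groups that did not receive Cre, and Cxcl10 in the 3 that did, although in RTEL1 CA +Cre cells (215 ± 24.6 against 190 ± 16.0 TPM) and Trf1f/f +Cre cells (1064 ± 250 against 711 ± 83.7 TPM) the libraries of both genes overlapped. At the other end, Cxcl5 was the lowest member in all groups with floxed Rtel1, and Ccl9 the lowest in both Trf1f/f groups. In Trf1f/f +GFP cells Cxcl12 reached 1004 ± 96.6 TPM, above 99.4% of genes, with Cxcl10 next at 237 ± 22.4 TPM. When CPM was instead divided by transcript length, Cxcl10 took rank 1 and Cxcl12 rank 4 in Rtel1f/f +GFP cells and the other ranks stayed.

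**Figure D2:**
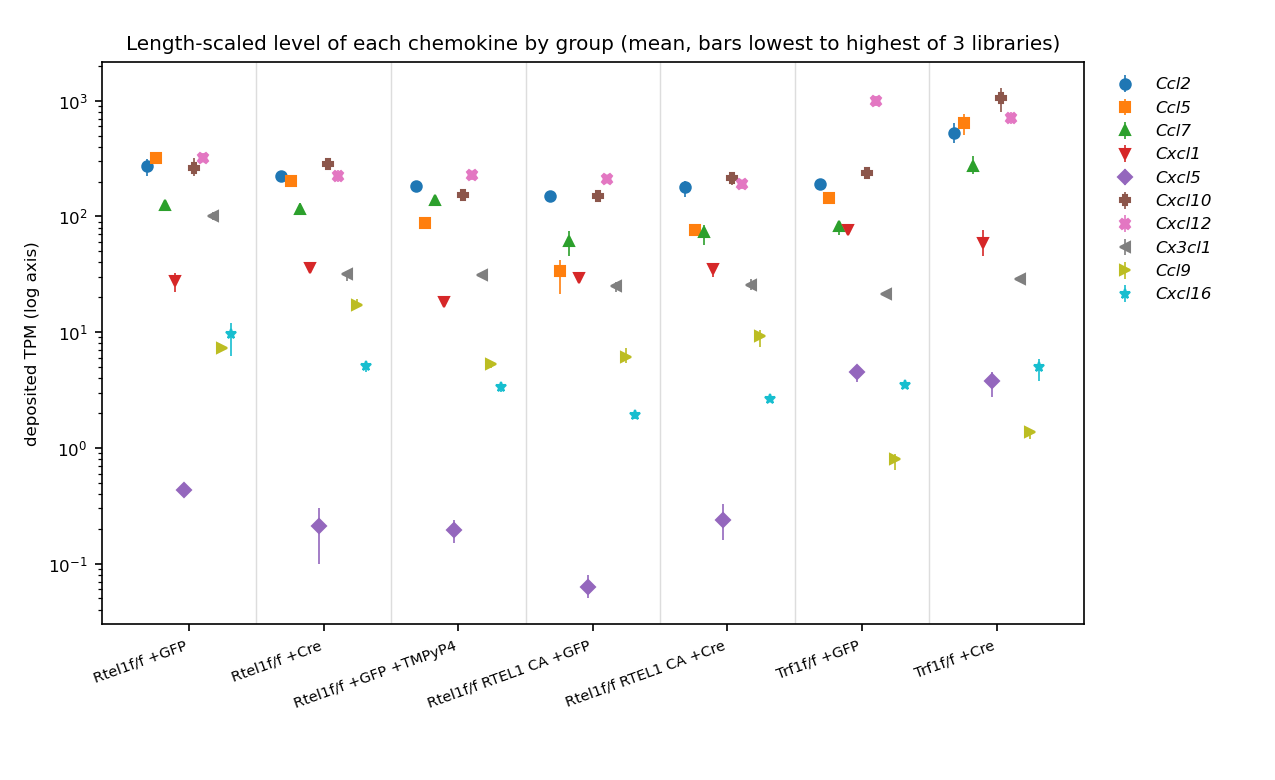
Mean deposited TPM of the 10 chemokines in each group on a log axis, with bars from the lowest to the highest of 3 libraries. The members span about 3 orders of magnitude in Rtel1f/f +GFP cells, from 0.437 TPM for Cxcl5 to 322 TPM for Cxcl12.

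With loss of Rtel1 the members moved in both directions. Of the 10, 5 passed an adjusted p of 0.01 in edgeR's quasi-likelihood test (Benjamini-Hochberg over 13719 genes), 2 higher and 3 lower, where 43.0% of all genes passed, 22.0% of all being higher. Ccl9 and Cxcl1 rose, and Cx3cl1, Cxcl16 and Cxcl12 fell. The median log2 fold change was -0.21 over the members and -0.03 over all genes, and the libraries of +Cre and +GFP cells did not overlap for 6 members, as for 61.4% of all genes. The members' share is thus near the background. Without Rtel1f/f +Cre replicate 2 or 3, or +GFP replicate 2 or 3, 3 members passed. Deviations of same-numbered +Cre and +GFP libraries from their group means correlated little (r -0.02 to 0.13). Separate handling of the +GFP libraries was not tested and cannot be told apart from the effect of deletion, or from that of TMPyP4 below.

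After TMPyP4, compared with the same Rtel1f/f +GFP libraries, 5 of 10 passed, and all 5 were lower: Ccl5, Cx3cl1, Cxcl16, Cxcl10 and Cxcl12. Among all genes 30.0% passed, 16.6% higher and 13.4% lower. Of the 10 members 9 had a fold change below 0, with a median of -0.48 on the log2 scale against -0.01 over all genes. Treated and untreated libraries did not overlap for any of the 10 members, whereas 57.8% of all genes showed no overlap. The number that passed was 3 when any 1 of these 6 libraries other than +GFP replicate 2 was left out, and 4 when that one was.

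In the RTEL1 CA line Cre moved few genes, 1.09% of all, and 1 of 10 members passed, Ccl5, which rose. Of the fold changes 9 of 10 were above 0, with a median of 0.36 on the log2 scale against 0.00 over all genes, and 5 members passed an unadjusted p of 0.05. The libraries of 5 members did not overlap, against 16.2% of all genes. This fit did not pair the libraries, although same-numbered libraries of this line deviated together. With replicate number as a block Ccl9 passed too, and over all genes 289 passed in place of 150.

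With loss of Terf1 7 of 10 members passed. They were 6 higher and 1 lower, where 3.42% of all genes passed, 2.65% higher and 0.765% lower. As the members were chosen with earlier results of these data known, these shares are no test of the members as a set. Ccl2, Ccl5, Ccl7, Cxcl10, Ccl9 and Cx3cl1 rose and Cxcl12 fell. The median log2 fold change was 0.68 over the members and 0.00 over all genes, and libraries did not overlap for 8 of 10 members and for 26.9% of all genes. Leaving out Trf1f/f +Cre replicate 3 or +GFP replicate 2 or 3 left 4 members past the threshold, and leaving out any other of the 6 libraries left 5 or 6. The fit did not pair the libraries, although same-numbered libraries of this line deviated together in 2 of 3 pairs (r -0.10 to 0.55). With replicate number as a block 7 members passed as well, and over all genes 757 passed in place of 469.

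**Figure D3:**
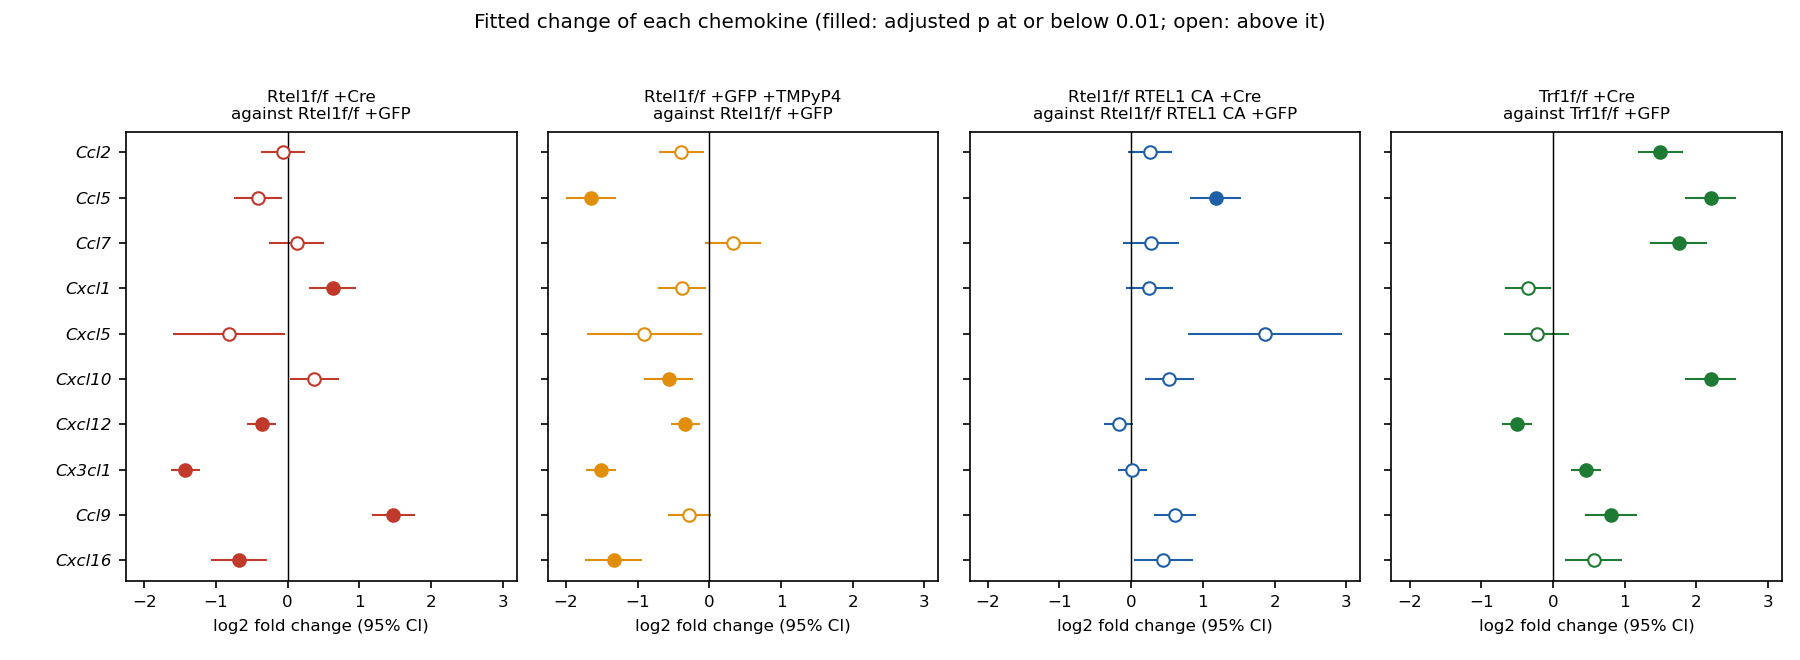
Fitted log2 fold change of each chemokine with its 95% confidence interval in 4 comparisons; filled points passed an adjusted p of 0.01 and open points did not. With Trf1f/f +Cre cells 6 members lie to the right as filled points, up to 2.20, and with TMPyP4 all 5 filled points lie to the left, down to -1.65.

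Ccl2 and Ccl7 attract monocytes through the receptor CCR2. Ccl2 was at 55.1, 68.0 and 63.1 CPM in Trf1f/f +GFP libraries and at 170, 213 and 143 CPM in Trf1f/f +Cre libraries, so that the lowest +Cre library was above the highest +GFP library. Ccl7 went from 21.9, 29.4 and 27.9 CPM to 79.3, 110 and 77.8 CPM in the same cells, again with no overlap. These are rises of 2.83-fold (log2 fold change 1.50 ± 0.15 SE, adjusted p = 3.07e-06, edgeR) and 3.37-fold (1.75 ± 0.19, adjusted p = 8.39e-06). Both remained past the threshold under every alternative fit run and without any 1 of the 6 libraries.

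Neither gene passed the test after loss of Rtel1. Ccl2 was at 72.3, 97.0 and 95.7 CPM under GFP and 76.2, 90.2 and 86.3 CPM after Cre, which overlap. Its log2 fold change was -0.07 with a 95% interval of -0.38 to 0.24, and that of Ccl7 was 0.13 with an interval of -0.26 to 0.51. Cre's effect in Rtel1f/f cells minus that in Trf1f/f cells was -1.57 for Ccl2 (adjusted p = 1.41e-05) and -1.63 for Ccl7 (adjusted p = 9.88e-05).

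TMPyP4 left the pair on different sides of the untreated level. Ccl2 was at 66.7, 68.8 and 66.9 CPM after TMPyP4, below all untreated libraries, and Ccl7 at 45.2, 52.1 and 53.4 CPM against 39.2, 39.8 and 40.9 CPM, above all of them. Neither change passed (Ccl2 log2 fold change -0.39, adjusted p = 0.0400; Ccl7 0.33, adjusted p = 0.158), although Ccl2 passed with replicate number as a block (-0.38, adjusted p = 0.00867) and Ccl7 in a fit of the 6 libraries alone (0.32, adjusted p = 0.00936). Both genes overlapped between GFP and Cre in RTEL1 CA cells, Ccl2 at 54.0, 58.0 and 61.2 against 54.7, 74.2 and 78.6 CPM, and Ccl7 at 23.1 ± 5.85 against 28.0 ± 6.12 CPM.

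Ccl5, known as RANTES, draws T cells and monocytes, and Cxcl10 draws activated T cells through CXCR3 and is a textbook target of interferon. Ccl5 in Trf1f/f cells was at 27.9, 27.6 and 23.9 CPM under GFP and 122, 144 and 99.1 CPM under Cre. Cxcl10 was at 98.8, 120 and 119 CPM under GFP and 535, 629 and 386 CPM under Cre. They had the largest rises of the 10 members there, 4.60-fold for Ccl5 (log2 fold change 2.20 ± 0.17 SE, adjusted p = 3.19e-07) and 4.59-fold for Cxcl10 (2.20 ± 0.17, adjusted p = 3.19e-07), and both held under every alternative fit and without any 1 library.

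In the Rtel1f/f line Ccl5 ranked by treatment without overlap, at 58.5, 54.4 and 63.2 CPM with GFP, 43.2, 42.5 and 47.0 CPM under Cre and 19.6, 16.6 and 19.7 CPM under GFP and TMPyP4. The TMPyP4-treated libraries were the lowest of the 3 groups. Relative to +GFP cells Ccl5 fell 3.15-fold after TMPyP4 (log2 fold change -1.65 ± 0.17, adjusted p = 8.04e-07), and with Cre the difference of -0.41 did not pass (adjusted p = 0.0389), although a fit of these 6 libraries alone gave an adjusted p of 0.00568. Cre-treated cells held 2.37-fold more Ccl5 than TMPyP4-treated cells (log2 difference 1.25, adjusted p = 2.48e-05).

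Ccl5 was low in RTEL1 CA cells and rose with Cre, from 9.17, 4.80 and 8.15 CPM to 16.2, 17.5 and 16.6 CPM, which do not overlap. The log2 fold change was 1.18 ± 0.17 (adjusted p = 0.000735). It did not pass in a fit of only these 6 libraries (1.18, adjusted p = 0.140), and it passed in all other fits. Even after this rise Ccl5 in RTEL1 CA cells stayed below every Rtel1f/f library of the GFP and Cre groups. Set against the change in RTEL1 CA cells, Cre's effect on Ccl5 in Rtel1f/f cells differed by -1.59 (log2, adjusted p = 5.46e-05), and set against that in Trf1f/f cells by -2.61 (adjusted p = 1.79e-07).

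Cxcl10 stood at 151, 102 and 113 CPM in Rtel1f/f +GFP libraries and at 146, 170 and 158 CPM under Cre, so that replicate 1 of the +GFP group lay within the +Cre range. The log2 fold change of 0.38 did not pass (adjusted p = 0.0571), while without Rtel1f/f +GFP replicate 1 it was 0.56 and passed (adjusted p = 0.00799). After TMPyP4 it was at 78.7, 87.2 and 81.3 CPM and fell by 0.56 on the log2 scale (adjusted p = 0.00936). This call was near the threshold: it was lost with other size factors, without the filter on low counts, with replicate number as a block and in a fit of the 6 libraries alone (adjusted p 0.0102 to 0.0151). It was also lost without Rtel1f/f +GFP replicate 1 or 3 or without any 1 of the TMPyP4 libraries, with an adjusted p between 0.0139 and 0.0676. Between Cre-treated and TMPyP4-treated cells the log2 difference was 0.94 (adjusted p = 0.000354). With Cre in RTEL1 CA cells Cxcl10 went from 83.5, 74.9 and 91.0 to 101, 130 and 129 CPM, without overlap, but the log2 fold change of 0.53 did not pass (adjusted p = 0.0880). Between Rtel1f/f and Trf1f/f cells Cre's effect on Cxcl10 differed by -1.82 (adjusted p = 8.92e-06).

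Ccl9, a mouse CC chemokine that acts on CCR1, was at 10.3, 9.89 and 11.0 CPM in Rtel1f/f +GFP libraries and at 28.0, 30.6 and 28.3 CPM in +Cre libraries. This 2.78-fold rise was the largest among the members after loss of Rtel1 (log2 fold change 1.48 ± 0.14 SE, adjusted p = 1.02e-07). It held under every alternative fit and without any 1 library. TMPyP4-treated libraries were at 7.86, 8.99 and 8.88 CPM, just below the untreated ones (log2 fold change -0.28, adjusted p = 0.120), and Cre-treated cells exceeded them 3.38-fold (1.75, adjusted p = 6.65e-08).

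Ccl9 in RTEL1 CA cells was at 9.04, 12.4 and 9.50 CPM under GFP and 12.2, 17.6 and 17.5 CPM under Cre. The ranges overlap slightly, and the log2 fold change of 0.61 did not pass (adjusted p = 0.0198). Same-numbered libraries of this line deviated together, and with replicate number as a block the value of 0.61 passed (adjusted p = 0.00708), as it did in DESeq2 (adjusted p = 0.00720), without RTEL1 CA +Cre replicate 1 (0.77, adjusted p = 0.00234) and without RTEL1 CA +GFP replicate 2 (0.76, adjusted p = 0.00883). Cre's effect on Ccl9 was larger in Rtel1f/f than in RTEL1 CA cells by 0.87 (log2, adjusted p = 0.00200), a call lost in a fit of the 4 groups alone (adjusted p = 0.0106) and without Rtel1f/f +GFP replicate 2 (0.85, adjusted p = 0.0101).

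Trf1f/f cells held little Ccl9, with 1.25, 0.965 and 1.24 CPM under GFP (54, 42 and 50 counts) and 2.13, 2.15 and 1.74 CPM under Cre. The rise of 0.80 ± 0.17 on the log2 scale passed (adjusted p = 0.00667). It was lost without any 1 of the 6 libraries (adjusted p 0.0120 to 0.0815), with other size factors (adjusted p = 0.0114) and in a fit of these 6 libraries alone (adjusted p = 0.0256). The fold change stayed above 0 in each of these fits.

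Cxcl1 and Cxcl5 attract neutrophils through CXCR2. Cxcl1 was at 8.88, 12.4 and 11.1 CPM in Rtel1f/f +GFP libraries, at 15.6, 17.7 and 16.9 CPM under Cre and at 7.74, 8.65 and 8.41 CPM with TMPyP4, so that the 3 groups did not overlap and treatments lay on opposite sides of the control. With Cre it rose 1.55-fold (log2 fold change 0.63 ± 0.16 SE, adjusted p = 0.00226). That call was lost without Rtel1f/f +Cre replicate 2 (0.57, adjusted p = 0.0135) and without Rtel1f/f +GFP replicate 1 (0.51, adjusted p = 0.0166). With TMPyP4 the difference of -0.38 did not pass (adjusted p = 0.0602), and Cre-treated exceeded TMPyP4-treated cells 2.02-fold (1.02, adjusted p = 0.000125).

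Cxcl1 in Trf1f/f cells did not pass with Cre, at 28.9, 32.1 and 30.7 CPM under GFP and 22.5, 31.2 and 18.5 CPM under Cre (log2 fold change -0.34, adjusted p = 0.248). Cre's effects in Rtel1f/f and Trf1f/f cells differed by 0.98 (adjusted p = 0.00159). RTEL1 CA cells held it at 13.3, 14.6 and 13.6 CPM under GFP and 13.5, 17.4 and 18.5 CPM under Cre (0.25, adjusted p = 0.546).

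Cxcl5 lay near the floor of measurement in all 5 groups with floxed Rtel1. It had 14, 14 and 19 counts in Rtel1f/f +GFP libraries, 4, 8 and 10 with Cre and 4, 7 and 9 with TMPyP4. In RTEL1 CA cells it had 2, 2 and 3 counts with GFP and 7, 8 and 13 with Cre, a ratio of summed and scaled counts of 3.78 with a 95% counting interval of 1.61 to 10.3. By edgeR these 3 differences within the lines did not pass (adjusted p 0.0546 to 0.0711). The difference between the effects of Cre in Rtel1f/f and RTEL1 CA cells did pass (-2.69, adjusted p = 0.00279), but it rests on those few counts and was lost without RTEL1 CA +Cre replicate 3 (-2.33, adjusted p = 0.0119). In Trf1f/f cells Cxcl5 had 118, 170 and 146 counts with GFP and 141, 154 and 79 counts with Cre, which overlap (log2 fold change -0.23, adjusted p = 0.695).

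Cxcl12, the ligand of CXCR4, holds stem cells and leukocytes in stromal niches and is cleared by the atypical receptor ACKR3. It was at 354, 403 and 372 CPM in Rtel1f/f +GFP libraries, 269, 315 and 297 CPM under Cre and 269, 312 and 312 CPM with TMPyP4, so that both treatments lay below the control and overlapped each other. It fell with Cre by 0.36 on the log2 scale (adjusted p = 0.00436) and with TMPyP4 by 0.34 (adjusted p = 0.00905), and the 95% interval of the difference between the treatments ran from -0.22 to 0.18. In Trf1f/f cells it fell by 0.50 (adjusted p = 0.00264), from 1032, 1182 and 1238 CPM to 797, 907 and 734 CPM. In RTEL1 CA cells the values of 269, 293 and 296 CPM under GFP and 227, 264 and 269 CPM under Cre gave a log2 fold change of -0.18 (adjusted p = 0.462). Cxcl12 was thus below its control in each of the 4 comparisons.

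These small changes of Cxcl12 stood close to the threshold. The call with Cre was lost without Rtel1f/f +Cre replicate 1 or 3 or Rtel1f/f +GFP replicate 2 or 3 (adjusted p 0.0237 to 0.0584), with other size factors and in a fit of the 6 libraries alone (0.0109 and 0.0131). The call with TMPyP4 was lost without any 1 of the 6 libraries (adjusted p 0.0102 to 0.0677), with other size factors, without a filter and in a fit of those libraries alone (0.0104 to 0.0179). In Trf1f/f cells it was lost without +Cre replicate 1 or 3 or +GFP replicate 2 or 3 (adjusted p 0.0222 to 0.0350) and in a fit of these 6 libraries alone (0.0192). The sign stayed below 0 in all of these fits.

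Cx3cl1, or fractalkine, both tethers and attracts CX3CR1-bearing monocytes and lymphocytes. It was at 139, 159 and 152 CPM in Rtel1f/f +GFP libraries, and at 60.2, 46.8 and 60.7 CPM under Cre and 55.3, 50.2 and 52.4 CPM with TMPyP4. Both treated groups lay far below all control libraries and overlapped each other. Cx3cl1 fell 2.68-fold with Cre (log2 fold change -1.42 ± 0.10 SE, adjusted p = 2.26e-09) and 2.85-fold with TMPyP4 (-1.51 ± 0.10, adjusted p = 5.10e-09), the same +GFP libraries serving as control in both. The difference between the treatments was 0.09, with a 95% interval of -0.12 to 0.29. Both falls passed under every alternative and without any 1 library.

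RTEL1 CA cells held Cx3cl1 at 47.6, 39.3 and 47.3 CPM with GFP, as low as treated Rtel1f/f cells, and at 49.4, 40.9 and 45.6 CPM under Cre (log2 fold change 0.02, 95% interval -0.19 to 0.22). Cre's effect differed between these lines by -1.44 (adjusted p = 7.63e-07), and the RTEL1 CA line started from the lower level. Cx3cl1 in Trf1f/f cells was at 31.3, 33.1 and 32.8 CPM under GFP and 43.2, 44.3 and 46.2 CPM under Cre. It rose there by 0.46 ± 0.10 on the log2 scale (adjusted p = 0.00602), opposite to its fall in Rtel1f/f cells, and the effects differed by -1.88 (adjusted p = 1.44e-08). The rise was lost without Trf1f/f +Cre replicate 3 or any 1 of the +GFP replicates (adjusted p 0.0105 to 0.0319).

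Cxcl16, the other membrane-bound member, binds CXCR6 on T cells and also acts as a scavenger receptor. It was at 7.12, 13.3 and 12.8 CPM in Rtel1f/f +GFP libraries, where replicate 1 stood apart, at 7.69, 6.70 and 6.41 CPM under Cre and at 4.60, 4.50 and 4.13 CPM with TMPyP4. With TMPyP4 it fell 2.52-fold (log2 fold change -1.33 ± 0.19, adjusted p = 2.48e-05), under every alternative and without any 1 library. With Cre it fell 1.60-fold (-0.68 ± 0.18, adjusted p = 0.00452) although the ranges overlapped. This call was lost without Rtel1f/f +Cre replicate 2 or 3 or Rtel1f/f +GFP replicate 2 or 3 (adjusted p 0.0151 to 0.0380) and in a fit of the 6 libraries alone (0.0392).

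In RTEL1 CA cells Cxcl16 was at 2.82, 2.60 and 2.42 CPM under GFP and 3.53, 3.71 and 3.50 CPM under Cre, and in Trf1f/f cells at 4.36, 3.98 and 3.80 CPM under GFP and 6.47, 6.99 and 4.47 CPM under Cre. Groups did not overlap in either line, but neither difference passed (log2 fold change 0.45, adjusted p = 0.291, and 0.57, adjusted p = 0.0939). For Cre's effect in Rtel1f/f cells the difference from RTEL1 CA cells was -1.13 (adjusted p = 0.00318) and that from Trf1f/f cells -1.24 (adjusted p = 0.00104). The first of these differences was lost without RTEL1 CA +GFP replicate 3, Rtel1f/f +GFP replicate 2 or Rtel1f/f +GFP replicate 3 (adjusted p 0.0102 to 0.0123) and in a fit of the 4 groups alone (0.0116).

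**Figure D4:**
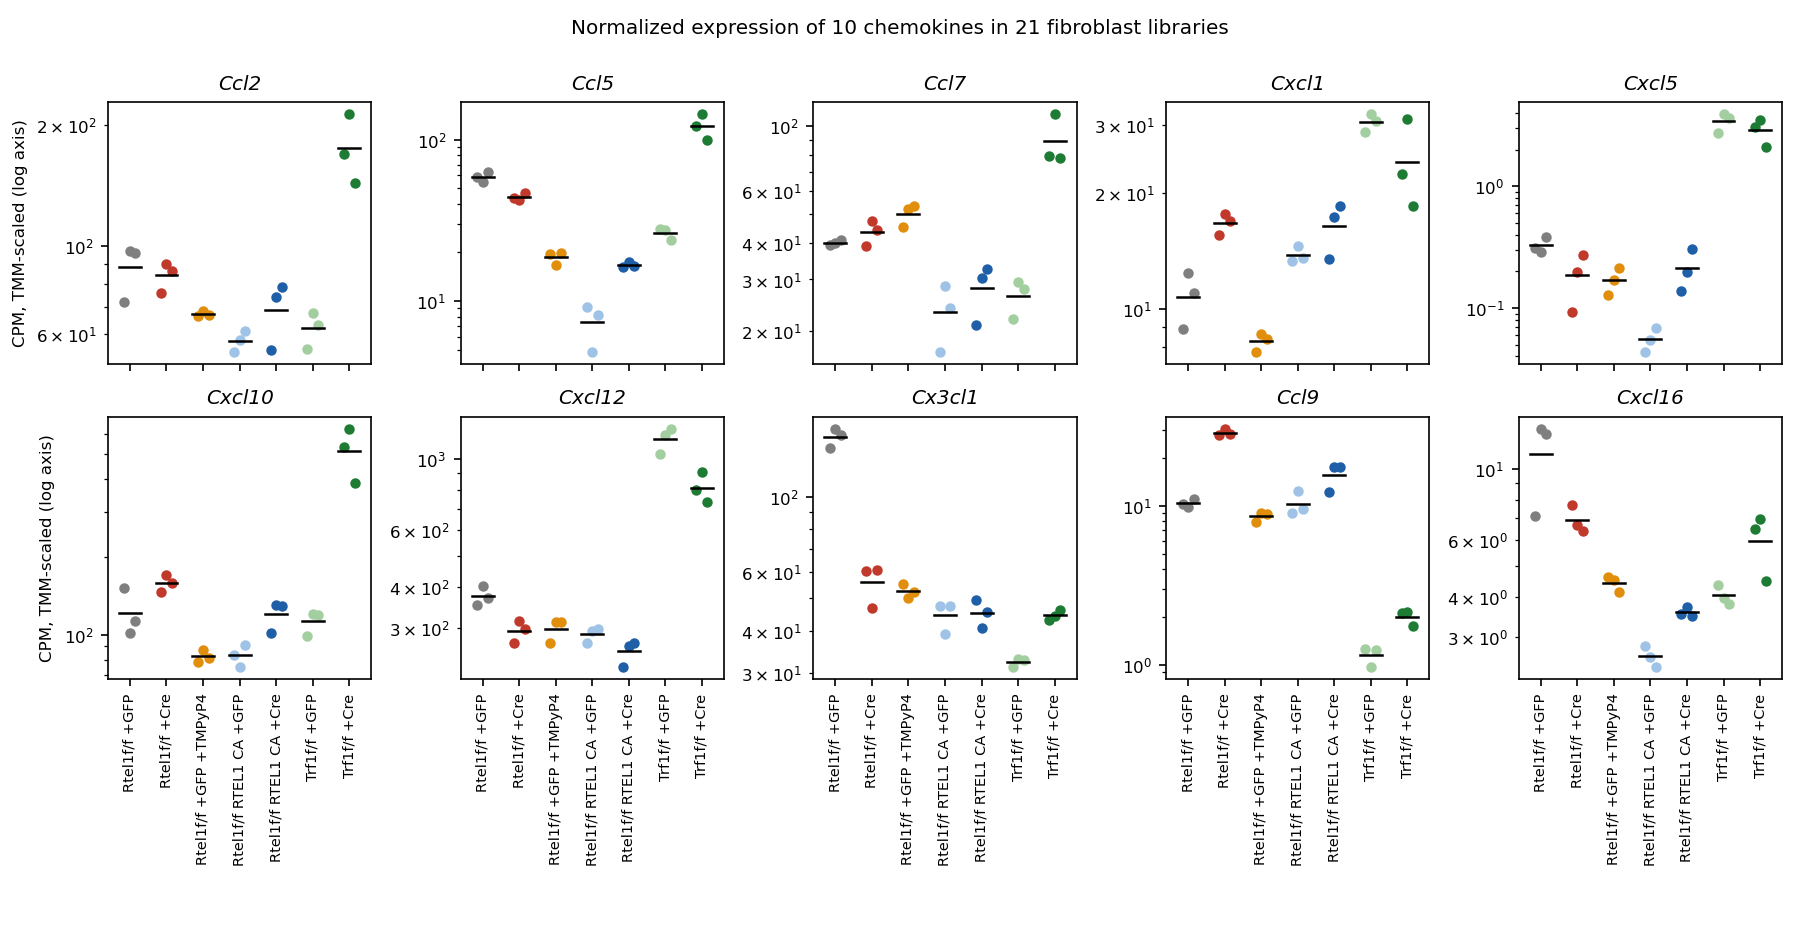
CPM of each chemokine in all 21 libraries, by group, on a log axis whose range differs between panels; points are libraries and lines group means. In Trf1f/f +Cre cells the 3 points of Ccl2, Ccl5, Ccl7 and Cxcl10 lie above all other libraries, and Ccl9 is highest in Rtel1f/f +Cre cells, at 28.0 to 30.6 CPM.

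Set beside each other, loss of Rtel1 and TMPyP4 gave 4 called differences among the members, where 15.2% of all genes passed. Ccl5, Cxcl1, Cxcl10 and Ccl9 were higher in Cre-treated than in TMPyP4-treated cells, by 1.25, 1.02, 0.94 and 1.75 on the log2 scale. Cxcl16 missed the threshold (0.65, adjusted p = 0.0165) but passed in DESeq2 (0.68, adjusted p = 0.00651) and in a fit of both groups alone (0.67, adjusted p = 0.00805). Same-numbered libraries of these groups deviated together, and with replicate number as a block 4 members passed as well, where 2970 of 13719 genes did.

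Cre's effects in Rtel1f/f and RTEL1 CA cells differed past the threshold for 5 members, where 25.1% of all genes passed: Ccl5, Cxcl5, Cx3cl1 and Cxcl16 below 0 and Ccl9 above. Against Trf1f/f cells the difference passed for 7 members, where 30.2% passed. There Ccl2, Ccl5, Ccl7, Cxcl10, Cx3cl1 and Cxcl16 were below 0 and Cxcl1 was above. All of these use the same Rtel1f/f libraries and are therefore not independent of each other.

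The lines differed before any Cre. RTEL1 CA +GFP cells were lower than Rtel1f/f +GFP cells for 8 of 10 members, where 44.7% of all genes passed in either direction. Cxcl1 and Ccl9 did not pass (adjusted p = 0.0584 and 0.948). Ccl5 was 7.92-fold, Cxcl16 4.24-fold and Cx3cl1 3.35-fold lower. Cxcl5 was lower as well (47 counts in all in Rtel1f/f and 7 in RTEL1 CA cells, a ratio of 5.95 with a counting interval of 2.67 to 15.6). The differences of Ccl2 (-0.61), Ccl7 (-0.79), Cxcl10 (-0.55) and Cxcl12 (-0.40) were smaller. Ccl2 and Ccl7 lost their calls without RTEL1 CA +GFP replicate 1 or Rtel1f/f +GFP replicate 2 or 3 (adjusted p 0.0103 to 0.0191). Cxcl12 lost its call without RTEL1 CA +GFP replicate 1 or 3 or Rtel1f/f +GFP replicate 2 or 3 (adjusted p 0.0112 to 0.0365). Cxcl10 lost its call without Rtel1f/f +GFP replicate 1 or 3 or any 1 of the RTEL1 CA +GFP libraries (adjusted p 0.0131 to 0.0658) and with other size factors, no filter, the block or a fit of these 6 libraries alone (0.0105 to 0.0165). Line and the mutant cannot be told apart in this comparison.

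Trf1f/f +GFP cells differed from Rtel1f/f +GFP cells for 9 members, where 54.9% of all genes passed. Cxcl5, Cxcl12 and Cxcl1 were higher by 10.4-fold, 3.06-fold and 2.83-fold. Ccl9 was 9.01-fold, Cx3cl1 4.63-fold, Cxcl16 2.74-fold and Ccl5 2.22-fold lower. Ccl2 (-0.51, adjusted p = 0.00549) and Ccl7 (-0.60, adjusted p = 0.00900) were also lower. Ccl2 lost its call without Rtel1f/f +GFP replicate 2 or 3 or Trf1f/f +GFP replicate 1 or 3 (adjusted p 0.0148 to 0.0308), and Ccl7 without any 1 of the 6 libraries (adjusted p 0.0148 to 0.0491), with other size factors, without a filter and with at least 10 counts required in every library (0.0130 to 0.0152). Cxcl10 did not pass (-0.11, 95% interval -0.45 to 0.23). Its libraries overlapped between the lines.

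Genes around the members were counted in 9 lists of other chemokines, receptors, NF-kB and interferon pathway genes and proteases, of which 66 genes were tested. After loss of Rtel1 6 of these were called higher and 25 lower, after TMPyP4 4 higher and 25 lower, and after loss of Terf1 9, all higher. Among all 13719 genes 43.0% were called after loss of Rtel1, 22.0% higher and the others, 2887 genes, lower. After TMPyP4 16.6% were higher and 13.4% lower, and after loss of Terf1 2.65% and 0.765%. With Cre in RTEL1 CA cells edgeR called 0 of the 66, as did DESeq2, and 14 had an unadjusted p under 0.05. Between RTEL1 CA +GFP and Rtel1f/f +GFP cells, both without Cre, 7 of the 66 were called higher and 29 lower, where 44.7% of all genes passed. The lists were chosen with earlier results of these data known.

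Of 10 interferon pathway factors 6 fell after loss of Rtel1, 5 fell after TMPyP4 and 4 rose after loss of Terf1, against 2887 of 13719 genes lower, 13.4% lower and 2.65% higher among all genes. Irf7, the factor that amplifies interferon production, was at 5.50 ± 1.03 CPM in Rtel1f/f +GFP, 0.956 ± 0.230 in +Cre and 1.41 ± 0.452 CPM in TMPyP4-treated cells, and at 126 ± 7.25 CPM in Trf1f/f +GFP and 411 ± 73.3 CPM in +Cre cells. It fell by 2.51 and 1.99 on the log2 scale in the first pair of comparisons and rose by 1.70 in Trf1f/f cells. Stat2, which carries the interferon signal to the nucleus, fell by 1.10 and 0.59 on the log2 scale and rose by 0.84 in the same order. Without Cre or TMPyP4, 8 of these 10 factors were also lower in RTEL1 CA +GFP than in Rtel1f/f +GFP cells, where 44.7% of all genes passed in either direction.

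Of 12 tested cytokines and receptors that induce chemokines 8 were lower after loss of Rtel1, where 2887 of 13719 genes were, among them Tlr2, a sensor of bacterial lipoproteins (-1.42), the TNF receptor Tnfrsf1b (-0.92) and the interleukin 1 receptor Il1r1 (-0.84). After TMPyP4 10 were lower, where 13.4% of all genes were, Tlr2 by 1.25 (-1.25) and Il1r1 by 0.93 (-0.93) on the log2 scale. Of the same 12, 8 were lower and 1 higher in RTEL1 CA +GFP than in Rtel1f/f +GFP cells, where 44.7% of all genes passed. With Cre 2 rose in Trf1f/f cells, where 2.65% of all genes did: Ifnb1, which encodes interferon beta, with 8 to 13 counts per library under GFP and 35 to 89 under Cre (2.61), and Tlr3, the sensor of double-stranded RNA (1.51). Of the 5 NF-kB subunits edgeR called 0 with Cre in Trf1f/f cells, as did DESeq2, and 0 had an unadjusted p under 0.05. Tnfaip3, an inhibitor that NF-kB induces, rose there by 0.75, and the adaptor Myd88 by 0.44.

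Among all genes 43.0% passed after loss of Rtel1 and 30.0% after TMPyP4. After loss of Rtel1 1 of 5 NF-kB subunits passed, Relb (-0.96), and among 7 inhibitors and feedback genes Bcl3 (-1.62) and Nfkbie (-0.97) fell while Nfkbiz (0.68) and Tnfaip3 (0.38) rose. After TMPyP4 Nfkbie (-1.09), Nfkbia (-0.71) and Tnip1 (-0.50) fell and Tnfaip3 rose (0.50). Among kinases and adaptors Chuk and Irak1 rose in both comparisons (0.74 and 0.62 with Cre, 0.69 and 0.52 with TMPyP4), and Traf2 fell in both (-0.40 and -0.36). These lists also differed between RTEL1 CA +GFP and Rtel1f/f +GFP cells, without Cre or TMPyP4, where 44.7% of all genes passed. In RTEL1 CA +GFP cells 1 of the 5 subunits was lower, and of the 7 inhibitors and feedback genes 1 was higher and 4 lower. Of 11 kinases and adaptors 4 were higher and 2 lower.

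Of 27 other chemokines 11 were tested. Cxcl11, which shares the receptor CXCR3 with Cxcl10, rose by 2.71 on the log2 scale with Cre in Trf1f/f cells, from 0.360 ± 0.0763 to 2.37 ± 0.419 CPM, and fell by 1.81 with TMPyP4. Ccl25 rose with Cre and with TMPyP4 in Rtel1f/f cells (1.15 and 0.73). Ppbp rose with Cre there, from 1 to 3 counts per library to between 16 and 24, and Cxcl9, at 1 to 7 counts in +GFP libraries, was called lower with Cre and with TMPyP4, where it had 0 counts in every library.

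The receptors of these chemokines summed to at most 4.11 CPM in any library. Of 9, 5 had at most 3 counts in every library, among them Ccr2, Ccr3, Cxcr3 and Cx3cr1, and 2 were tested. Cxcr4, the receptor of Cxcl12, averaged at most 0.823 CPM in any group and fell with TMPyP4 (-1.47), while Trf1f/f +GFP libraries had 0 counts of it. Ackr3, the atypical receptor that takes up Cxcl12, was well measured, at 37.9 ± 5.03 CPM in Rtel1f/f +GFP, 12.7 ± 0.619 CPM in +Cre and 12.2 ± 2.40 CPM in TMPyP4-treated cells. It fell in both comparisons (-1.58 and -1.64) and did not pass with Cre in Trf1f/f cells (0.06), where Cxcl12 fell. Without Cre or TMPyP4, Ackr3 was also lower in RTEL1 CA +GFP than in Rtel1f/f +GFP cells (-1.52). Among 7 proteases that cut these chemokines 5 fell with Cre in Rtel1f/f cells by edgeR, where 2887 of 13719 genes did, including Mmp9 (-2.38), from 135 ± 25.3 to 26.0 ± 5.81 CPM, and Mmp14 (-0.74). With TMPyP4 edgeR called Mmp9 (-2.57) of the 7, where 13.4% of all genes were lower, and 5 had an unadjusted p under 0.05. DESeq2 called Adam10, Mmp2, Mmp9 and Mmp14 in both comparisons. Between RTEL1 CA +GFP and Rtel1f/f +GFP cells edgeR called 3 of the 7 lower, where 44.7% of all genes passed in either direction.

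Marker genes moved with some of the same groups. Fibroblast markers summed to 19448 to 21433 CPM in Rtel1f/f +GFP, 8001 to 10722 CPM in +Cre and 10847 to 14384 CPM in TMPyP4-treated libraries. Of the 10, 6 fell in each comparison, with Col3a1 at -2.35 and -1.20, and with Cre 3 rose, Thy1 (2.40, at no more than 0.252 CPM on average), Dcn (1.47) and S100a4 (1.28). Macrophage and monocyte markers summed to 6.83 to 7.11 CPM in Rtel1f/f +GFP and 10.9 to 15.1 CPM in +Cre libraries, where Mrc1, Csf1r and Cd14 of 4 tested rose, whereas Adgre1 and C1qa were at 0. In the same libraries endothelial markers went from 0.245 to 0.329 CPM under GFP to between 0.536 and 0.573 CPM under Cre and epithelial markers from 3.09 to 3.19 CPM to between 5.04 and 7.32 CPM. TMPyP4-treated libraries had 8.33 to 8.69 CPM of macrophage and monocyte markers. In RTEL1 CA cells macrophage and monocyte markers summed to 8.71 to 10.2 CPM under GFP and 10.4 to 11.7 CPM under Cre. Fibroblast markers summed there to 9325 to 12932 CPM under GFP and 7903 to 11625 CPM under Cre. Against Rtel1f/f +GFP cells 6 of the 10 fibroblast markers were lower and 3 higher in RTEL1 CA +GFP cells, where 44.7% of all genes passed. In Trf1f/f cells fibroblast markers summed to 21903 to 29029 CPM under GFP and 22474 to 26625 CPM under Cre, macrophage and monocyte markers to 8.40 to 9.60 and 9.88 to 10.4 CPM, endothelial markers to 2.16 to 2.64 and 3.86 to 4.45 CPM and epithelial markers to 1.89 to 2.62 and 3.33 to 4.47 CPM. T and NK cell markers summed to at most 0.144 CPM in any library. Their part in the chemokine results was not tested.

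The members were also compared with each other across the 21 libraries. Pearson's r of log2 CPM was 0.92 between Ccl2 and Cxcl10, 0.87 between Ccl2 and Ccl7, 0.84 between Ccl2 and Ccl5 and 0.81 between Ccl5 and Cxcl10. Cxcl12 and Cxcl5, both high in Trf1f/f cells, had an r of 0.95, and Ccl9, low in those cells, an r of -0.92 with Cxcl12. The chromosomal neighbours Ccl5 and Ccl9 had an r of -0.28. These values describe 21 libraries that fall into 7 groups and share lines and treatments.

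**Figure D5:**
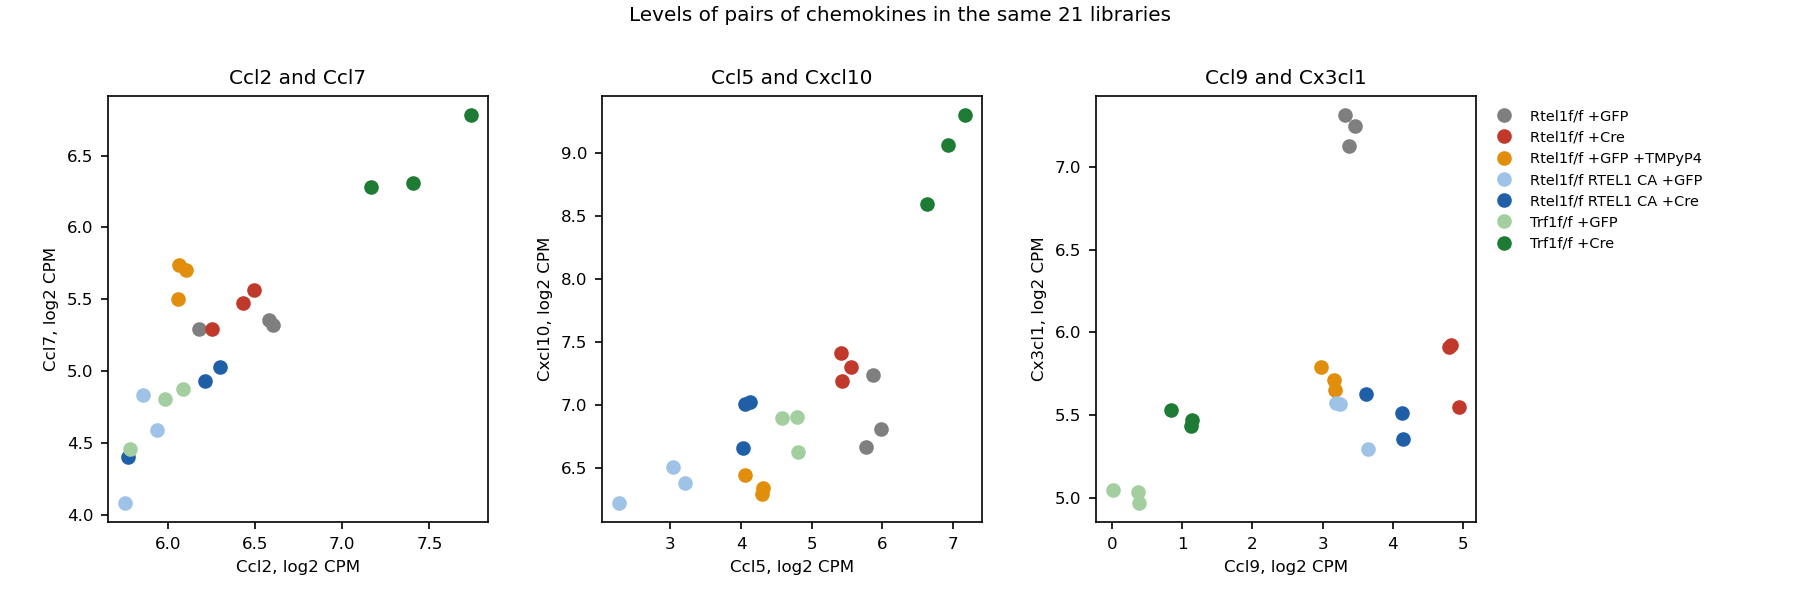
Log2 CPM of 3 pairs of chemokines in the same 21 libraries, coloured by group. Ccl2 and Ccl7 (r 0.87) and Ccl5 and Cxcl10 (r 0.81) are both highest in the 3 Trf1f/f +Cre libraries, whereas Ccl9 and Cx3cl1 (r 0.40) separate by line and treatment.

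For each member the 3 tested genes with the highest r over the 21 libraries were noted. Cxcl10 was closest to Ccl2 (0.92), Cxcl11 (0.92) and Car13 (0.89), and Ccl2 to Cxcl10, Slfn9 (0.88) and Enpp4 (0.88). Ccl7 was closest to Ccl2, Irf5 (0.87) and Irf1 (0.85), and Ccl5 to Heatr9 (0.93), Tgfa (0.92) and Irf5 (0.90). Another member was thus among the nearest genes of Ccl2, Ccl7 and Cxcl10.

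The remaining members had other neighbours. Cx3cl1 was closest to Plekhg4 (0.97), Pald1 (0.95) and C3 (0.94), and Cxcl16 to Kdsr, Cp and Vdr (0.90 each). Ccl9 was closest to Ndst3 (0.98), Mreg (0.98) and Cers5 (0.97), and Cxcl1 to Tcp11l2 (0.95), Angptl4 (0.94) and Spp1 (0.94). Cxcl12 had Zfp422, Meis1 and Rimklb (0.99 each) and Cxcl5 had Ptgr1 (0.99), Cers4 (0.98) and Cd59a (0.98) as neighbours. All of these r values are over the same 21 libraries.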

How the data were processed

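RNA-seq of 21 MEF libraries in 7 groups was used. Per the labels, strand-specific single-end libraries were made from poly(A) RNA. The submitters' processing notes name cutadapt 1.9.1, STAR 2.5.2a, RSEM 1.3.0, DESeq2 1.28.0 and mm10. Reads were counted by strand against RefSeq genes. The authors deposited the expected counts that RSEM estimated for each gene, not normalized, and the authors also deposited RSEM's TPM values. All expected counts were whole numbers, and rounding changed none. TPM was used only to compare levels between genes.

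edgeR 4.0.16 in R 4.3.3 was run on these counts (TMM, filterByExpr, robust glmQLFit of all 21 libraries with a mean for each group, two-sided quasi-likelihood test, Benjamini-Hochberg over 13719 genes, calls at an adjusted p of at most 0.01). SEs and intervals come from this fit. CPM are counts over TMM-scaled library sizes, and log2 CPM used a prior count of 2. Counting intervals are exact and cover counting error only. Total counts had a median of 43013208 per library. Alternatives were DESeq2 1.42.0, its size factors, other filters, stricter and looser thresholds, the replicate block, only the groups compared and each library left out.

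Replicate numbers were taken to pair libraries where the deviations of all 3 same-numbered pairs from their group means correlated above 0.1. This held between RTEL1 CA +Cre and +GFP libraries (r 0.42 to 0.86) and between Rtel1f/f +Cre and TMPyP4-treated libraries (r 0.41 to 0.76). It did not hold between Rtel1f/f +GFP libraries and those of Rtel1f/f +Cre (r -0.02 to 0.13), TMPyP4-treated (0.02 to 0.13) or RTEL1 CA +GFP cells (0.03 to 0.11). Whether the Rtel1f/f +GFP libraries were handled apart from these was not tested. Between Trf1f/f +Cre and +GFP libraries 2 of 3 pairs were above 0.1 (r -0.10 to 0.55), and they were not taken as paired. In the difference of Cre effects between Rtel1f/f and RTEL1 CA cells 11 of 18 pairs passed, among them all 3 of Rtel1f/f +Cre with RTEL1 CA +GFP libraries (r 0.20 to 0.81), and its libraries were not taken as paired. At most 3.67% of counts were identical between any 2 libraries, among genes above 0 in either. Named were all 10 members, Rtel1 and Terf1, the 3 genes most like each member, and up to 3 called genes with the largest change per list and comparison. Members and lists were chosen with earlier results of these data known. Promoters and positions are RefSeq's for GRCm38.p6. Python 3.11.15 and matplotlib 3.10.9 drew the figures. Some items are not reported here.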

Additional observations from a re-analysis of the deposited data

Results flagged for a closer look

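The effect of Cre differed between lines for several members, by a test of the difference itself (edgeR, adjusted p of at most 0.01 over all genes). Between Rtel1f/f and RTEL1 CA cells the difference in log2 fold change was -1.59 for Ccl5, -2.69 for Cxcl5, -1.44 for Cx3cl1, 0.87 for Ccl9 and -1.13 for Cxcl16. For Cxcl5 it rests on 2 to 3 counts per library in RTEL1 CA +GFP cells.

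Between Rtel1f/f and Trf1f/f cells it was -1.57 for Ccl2, -2.61 for Ccl5, -1.63 for Ccl7, 0.98 for Cxcl1, -1.82 for Cxcl10, -1.88 for Cx3cl1 and -1.24 for Cxcl16. Cx3cl1 fell with Cre in Rtel1f/f cells and rose in Trf1f/f cells, where each +Cre library was above each +GFP library. Groups of 3 libraries were too small for a test of single outlying libraries.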

How the results depend on the processing

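The number of members called moved with some settings. With an absolute log2 fold change of at least 1 required, 2 members passed after loss of Rtel1, 3 after TMPyP4, 4 after loss of Terf1 and 4 between RTEL1 CA +GFP and Rtel1f/f +GFP cells. No share of all genes is given for this rule, for an adjusted p of 0.05 or for fits without 1 library. Those member counts therefore have no background beside them. After TMPyP4 3 members passed with DESeq2's size factors in edgeR, where 3872 of 13719 genes did. Without the filter on low counts 3 passed there too, where 3821 of 18518 genes did. Fitting only the groups compared left 0 members past the threshold with Cre in RTEL1 CA cells by edgeR (5 had an unadjusted p under 0.05 in the fit of all libraries) and 3 for the difference between the effects of Cre in Rtel1f/f and RTEL1 CA cells. In RTEL1 CA cells 2 members passed with Cre at an adjusted p of 0.05, with the replicate block and in DESeq2, Ccl9 being added. Without 1 library the counts were 3 to 5 with Cre in Rtel1f/f, 3 to 4 with TMPyP4, 1 to 2 with Cre in RTEL1 CA, 4 to 6 with Cre in Trf1f/f cells, 4 for Cre against TMPyP4, 3 to 5 and 7 for the differences of Rtel1f/f from RTEL1 CA and from Trf1f/f cells, and 4 to 7 and 7 to 8 for RTEL1 CA +GFP and Trf1f/f +GFP against Rtel1f/f +GFP cells.

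No called log2 fold change turned its sign. Uncalled ones near 0 did. For Cxcl12, Cre against TMPyP4, the value was 0.0066 with DESeq2's size factors and 0.0055 in DESeq2, and -0.088 to 0.038 without 1 library. Cxcl5 in that comparison ranged from -0.22 to 0.43 without 1 library. For Ccl9, RTEL1 CA +GFP against Rtel1f/f +GFP, it was 0.016 with DESeq2's size factors and in DESeq2, 0.0055 without the filter, and -0.15 to 0.11 without 1 library. Without 1 library Cx3cl1 with Cre in RTEL1 CA cells ranged from -0.070 to 0.073, Ccl7 and Cxcl10 in the difference from RTEL1 CA cells from -0.32 to 0.055 and from -0.26 to 0.038, Cxcl10 in Trf1f/f +GFP against Rtel1f/f +GFP cells from -0.24 to 0.063, and Ccl2 with Cre in Rtel1f/f cells from -0.19 to 0.023. The cause was not tested.

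With the replicate block 5 members passed after loss of Rtel1, 5 after TMPyP4, 2 with Cre in RTEL1 CA cells, 7 after loss of Terf1 and 4 for Cre against TMPyP4. The block changed no other member's call than those of Ccl9 in RTEL1 CA cells, Ccl2 and Cxcl10 after TMPyP4 and Cxcl10 between RTEL1 CA +GFP and Rtel1f/f +GFP cells. Over all 13719 genes tested the block gave 7218 calls in place of 5902 after loss of Rtel1 and 5434 in place of 4114 after TMPyP4. It gave 289 in place of 150 with Cre in RTEL1 CA cells and 757 in place of 469 after loss of Terf1. For Cre against TMPyP4 it gave 2970 in place of 2088. DESeq2 gave 335 in RTEL1 CA cells. Fitting only the groups compared gave 0 in RTEL1 CA cells, 933 in place of 2088 for Cre against TMPyP4 and 2195 in place of 3450 for the difference from RTEL1 CA cells. No scaling moved the median of all genes by over 0.1 on the log2 scale. Counts near 3 per library limit Cxcl5, and 3 libraries per group limit all tests.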
